A study of Homo sapiens with 12 samples.

Results

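The response to low oxygen of FDX2-iKO ES2 cells that kept FDX2 was measured by RNA-seq in 6 of the 12 libraries of the series, 3 from cells moved to 3% O2 and 3 from cells kept at 20% O2, all with Doxy. The members are these 6 libraries, chosen by condition and not by any measured value, and the comparison covered every gene. ES2 is a human ovarian cancer cell line. FDX2, a ferredoxin of the mitochondrial matrix, passes electrons to the machinery that builds iron-sulfur (Fe-S) clusters. In all groups used here the endogenous FDX2 gene had been cut with CRISPR-Cas9, and an HA-tagged FDX2 cDNA that the guide cannot cut was driven by a TRE promoter under tTS and rtTA, so that Doxy (doxycycline) keeps FDX2 on and its removal depletes FDX2. The cells were cloned by limiting dilution, and by the study's convention its results come from 1 clone unless otherwise stated. The 20% O2 + Doxy cells were cultured for 6 days at 20% O2, whereas the 3% O2 + Doxy cells had 4 days at 20% O2 and then 3 days at 3% O2, so oxygen and total time in culture cannot be told apart. The 3% O2 wo Doxy and 20% O2 wo Doxy groups, which were cultured for the same times without Doxy, served as the only other comparison.

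Cells read oxygen chiefly through the hypoxia-inducible factors (HIFs). With oxygen present, prolyl hydroxylases of the EGLN family mark the HIF alpha subunits HIF1A and EPAS1 for destruction by the VHL ubiquitin ligase. When oxygen is scarce the alpha subunits persist, pair with ARNT, and bind DNA at short motifs with the core ACGTG or GCGTG near target genes, among them genes of glycolysis, pH control, mitophagy, collagen hydroxylation and blood vessel growth. The alpha subunits are controlled mainly at the protein level, which RNA-seq does not measure.

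The 6 libraries held between 26716916 and 34313637 counts, and 16891 of the 32966 genes with any count across the series had enough counts to be tested. Levels are given in CPM, counts scaled to the size of each library after TMM normalization. A gene was called higher or lower where the adjusted p of edgeR's quasi-likelihood test was under 0.05, and changes are log2 ratios of 3% to 20% O2 with their standard error (SE). Samples are described as biological replicates, without further detail on how the cultures were separated. The p-values rest on a spread between libraries estimated over all 12 of the series, including those without Doxy. Replicates without Doxy varied less. Their median chi-square per degree of freedom was 1.51 at 20% O2 and 4.32 at 3% O2, against 7.24 and 6.64 with Doxy. With the 6 libraries with Doxy fitted alone, 128 genes were called rather than 341, 9 of them lower. FDX2 itself gave 5, 2 and 6 counts at 20% O2 and 2, 4 and 12 counts at 3% O2, and 70.9% of its exonic length is shared with overlapping gene models. It was therefore too low to test, and the presence of FDX2 could not be checked from these counts. Of 7 epithelial and 6 ovarian carcinoma marker genes looked at, CDH1, MUC16, MSLN and SOX17 had 0 counts in all 6 libraries, while the summed level of the epithelial keratins and other members was between 1024 and 1409 CPM in every library. The mesenchymal markers summed to between 3510 and 5036 CPM. CD3E of leukocytes and HBB and HBA1 of red cells were also at 0, leukocyte markers summed to at most 0.181 CPM, and the single liver marker reached at most 0.13 CPM. Endothelial markers, nearly all from CDH5, summed to between 22.1 and 28.5 CPM at 20% O2 and between 28.7 and 36.8 CPM at 3% O2.

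One library in each group stood apart. In 20% O2 + Doxy replicate 1 and 3% O2 + Doxy replicate 3, genes with GC-rich transcripts were high relative to the mean of the group and GC-poor ones low, and in the other 4 libraries the reverse held. Across 11175 genes, the Spearman correlation of a gene's deviation with its GC content was 0.83 and 0.76 in those libraries and between −0.79 and −0.58 in the rest. These are descriptions of single libraries across genes, and genes are not independent. Deviations are taken from the mean of 3 libraries, so 1 GC-rich library by itself sets the other 2 of its group the opposite way. Because 1 such library fell in each group, results are also given without both, and after a correction of each library for its trend with GC content. 1 of the 2 read files had been lost for each of 20% O2 + Doxy replicates 1 and 2 by the submitters' account, although counts were present for both.

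The sequences before the transcription start of 6 genes are shown first, since the HIF core is the motif by which this response is known. They are the first 6 protein-coding genes in order of increase that were in the promoter table and held a match, so they do not stand for all increases. Of the 15 largest increases 12 were in the table, and TCAF2 and SLC16A3 among them held no match. The sequences are taken from the RefSeq promoter table (GRCh38.p14), which held 11263 of the 16891 tested genes. Each runs 5′ to 3′ on the strand of its gene, and capitals mark every match to ACGTG or GCGTG on either strand (CACGT and CACGC when read on the other strand). CACGTG, which holds the core on both strands, is also the letters of the E-box motif. Printed is the longest stretch of the 250 bases before the start that lies outside annotated exons and holds a match, or 25 bases around a match where there is none. The start is that of RefSeq. The stretches of CA9 and ALDOC overlap annotated exons, and all 250 bases of ALDOC are exonic. Those of CA9 and PFKFB4 lie within the gene spans given below, which begin further upstream than the RefSeq start.

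CA9, chr9:35673900-35673924, plus strand: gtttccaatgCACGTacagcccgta

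PFKFB4, chr3:48556924-48556982, minus strand: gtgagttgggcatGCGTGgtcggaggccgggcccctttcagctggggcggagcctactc

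DDIT4, chr10:72273674-72273919, plus strand: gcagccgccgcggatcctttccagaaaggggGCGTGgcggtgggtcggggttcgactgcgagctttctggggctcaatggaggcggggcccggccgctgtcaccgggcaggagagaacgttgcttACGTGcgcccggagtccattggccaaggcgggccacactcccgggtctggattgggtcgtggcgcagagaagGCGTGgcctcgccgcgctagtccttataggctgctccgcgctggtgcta

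ALDOC, chr17:28577121-28577145, minus strand: aagtgcccggCACGTGgtaaaggga

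ZP1, chr11:60867292-60867541, plus strand: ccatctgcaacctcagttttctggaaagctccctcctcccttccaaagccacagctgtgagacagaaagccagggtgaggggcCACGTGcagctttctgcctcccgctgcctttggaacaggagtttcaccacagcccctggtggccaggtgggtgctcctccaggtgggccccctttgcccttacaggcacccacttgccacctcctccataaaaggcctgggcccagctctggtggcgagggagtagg

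BNIP3, chr10:131982014-131982173, minus strand: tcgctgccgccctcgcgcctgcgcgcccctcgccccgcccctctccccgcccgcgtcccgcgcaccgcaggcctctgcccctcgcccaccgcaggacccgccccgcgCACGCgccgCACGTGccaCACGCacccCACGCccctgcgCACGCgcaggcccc

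Counted back from the start, the match in CA9 began at base −18, that in PFKFB4 at −166, and those in DDIT4 at −219, −125 and −53. BNIP3 held 6 matches between bases −143 and −104, and ALDOC held 5 in its 250 bases. A core on either strand is common: 56.9% of the tested genes with a promoter in the table had at least 1 in the 250 bases before the start, as did 60.4% of the 53 genes called higher at least 2-fold that were in the table, 53.7% of the 201 called higher at any size and 48.9% of the 47 called lower. The stricter ACGTG was present in 23.6% of tested genes, 43.4% of those called higher at least 2-fold, 31.8% of all called higher and 25.5% of those called lower. A match describes the letters in this window and not the binding of a factor.

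At 3% O2 with Doxy, the largest increases among genes averaging at least 5 CPM included those of the carbonic anhydrase CA9, the host transcript of a hypoxia microRNA (MIR210HG), glycolytic regulators and enzymes, the stress regulator DDIT4 and the mitophagy receptor BNIP3. Of the 16891 tested genes, 341 were called (2.02%), 276 higher at 3% O2 (1.63%) and 65 lower (0.385%), and 2193 had an unadjusted p under 0.05. Increases were also larger: 89 genes were called higher at least 2-fold, 22 at least 4-fold, and 3 lower at least 2-fold. The median log2 change was 0.70 among genes called higher and −0.38 among those called lower, against −0.0045 over all tested genes, whose interquartile range was −0.11 to 0.13. In each of the 341 called genes the 3 libraries at 3% O2 did not overlap the 3 at 20% O2, as was the case for 2609 (15.4%) of all tested genes. The called genes comprised 220 protein-coding genes that rose and 60 that fell of 12558 tested, 43 long noncoding genes that rose and 2 that fell of 3142, 13 pseudogenes that rose of 999, and 3 mitochondrial tRNA genes that fell of 16.

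The correction for GC content raised the number of calls to 1265 (7.49% of 16886 genes), 875 higher (5.18%) and 390 lower (2.31%), and 336 of the 341 genes were among them with the same direction. Without the 2 libraries apart in GC content, 351 of 17220 genes were called, 247 higher and 104 lower, and 248 of the 341 remained.

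The largest change was in CA9 (chr9:35673856-35681159, GRCh38), a cell-surface carbonic anhydrase that handles acid made by glycolytic cells. It was counted 3, 3 and 2 times in the libraries at 20% O2, or 0.0959, 0.109 and 0.0588 CPM, and 1248, 1653 and 2699 times at 3% O2, or 40.4, 63.1 and 87.3 CPM. The 3 libraries at 20% O2 were close to no signal, and all 3 at 3% O2 were far above them. With so few counts at 20% O2 the ratio of the summed counts, 739, had an exact 95% interval of 375 to 1713 that covers counting error only, and the adjusted p was 3.01e-06. Of the exonic length of CA9, 38.5% is shared with ARHGEF39 on the opposite strand, whose mean level was 19.5 CPM at 20% O2 and 21.6 CPM at 3% O2. The strand setting of the counting is not given in the sources used here.

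MIR210HG (chr11:565660-568457), the long noncoding host of miR-210, had 0.735, 0.688 and 0.47 CPM at 20% O2 and 11.1, 12.5 and 15.3 CPM at 3% O2, a log2 change of 4.36 (SE 0.27, adjusted p = 5.54e-06). PFKFB4 (chr3:48517684-48562015), whose product sets the level of an activator of phosphofructokinase, rose from 3.55, 3.37 and 3.97 CPM to 20.2, 25.4 and 34.1 CPM, a log2 change of 2.87 (SE 0.20, adjusted p = 1.86e-05). DDIT4 (chr10:72273920-72276036), an inhibitor of mTORC1 signalling, rose from 5.21, 5.0 and 4.17 CPM to 25.5, 34.8 and 33.9 CPM, a log2 change of 2.71 (SE 0.15, adjusted p = 3.01e-06). In all of these the lowest library at 3% O2 lay far above the highest at 20% O2. DDIT4 shares 41.2% of its exonic length with its antisense transcript DDIT4-AS1, which had means of 0.206 CPM at 20% O2 and 1.31 CPM at 3% O2.

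BNIP3 (chr10:131966455-131982013), a receptor that brings mitochondria to autophagosomes, was already well expressed at 109, 105 and 110 CPM at 20% O2 and had 313, 356 and 362 CPM at 3% O2, a log2 change of 1.67 (SE 0.07, adjusted p = 6.13e-07). STC1, a secreted glycoprotein hormone, had the smallest adjusted p of all genes, 1.25e-07. It rose from 36.2, 38.0 and 39.9 CPM to 104, 112 and 112 CPM, a log2 change of 1.52 (SE 0.05). ENO2 (chr12:6913745-6923698), the neuronal form of enolase, rose from 31.5, 31.0 and 28.2 CPM to 82.3, 95.4 and 104 CPM, a log2 change of 1.64 (SE 0.09, adjusted p = 3.01e-06). The libraries of each group differed little from each other in these 3 genes compared with the gap between the groups.

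The other large increases among genes that averaged at least 5 CPM over the 6 libraries were smaller in level. PDK1-AS1, a transcript antisense to the PDK1 locus, rose by 2.20 on the log2 scale from a mean of 2.18 ± 0.194 to 10.1 ± 0.966 CPM (SD, n = 3), with 20.3% of its exonic length shared with PDK1 and ITGA6. TCAF2, a regulator of a cold-sensing ion channel, also rose by 2.20, from 2.63 ± 0.415 to 12.1 ± 1.82 CPM. ALDOC, the brain form of aldolase, rose by 2.08, SPAG4, a nuclear envelope protein, by 1.99, and ZP1, a protein of the egg coat, by 1.97. SLC16A3, a lactate exporter, and RASSF4, a protein of the RAS-association family, rose by 1.79 and 1.56. ZP1 had 2.84, 2.75 and 2.62 CPM at 20% O2 and 8.48, 10.2 and 13.6 CPM at 3% O2. Adjusted p-values of these 14 increases lay between 1.25e-07 and 0.00046, and all 14 were also called with the GC correction and without the 2 libraries apart in GC content.

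**Figure D1:**
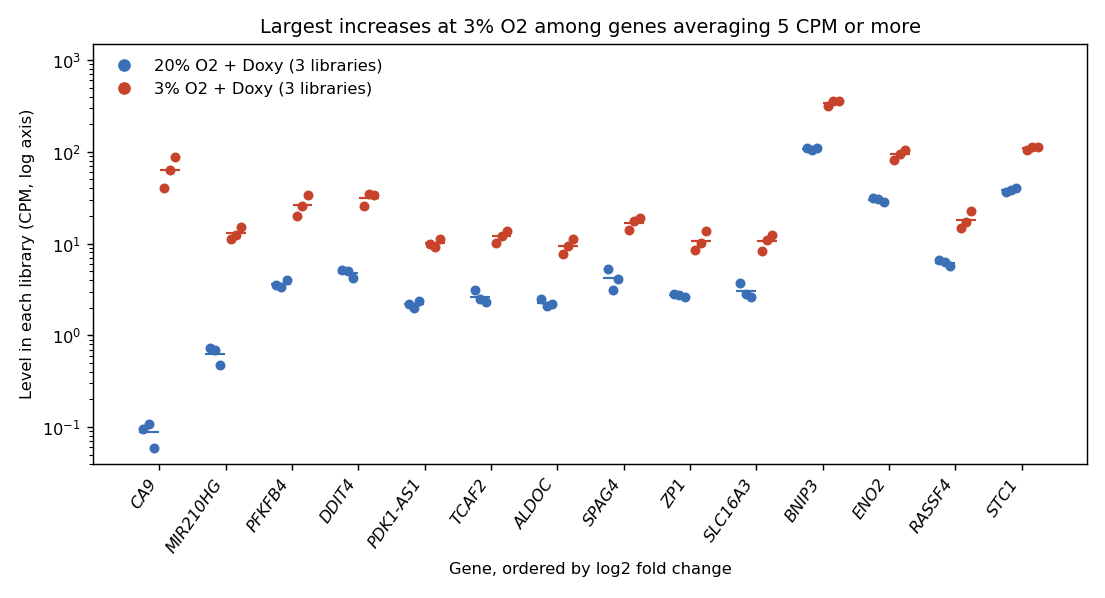
Level of 14 of the 15 genes with the largest increases among those averaging at least 5 CPM, in each library (CPM, log axis), ordered by log2 change. Points are the 3 libraries of each group, blue for 20% O2 + Doxy and red for 3% O2 + Doxy, and bars are means. Groups without overlap were a condition for choosing these genes. The gap narrows from CA9, at a log2 change of 9.46, to STC1, at 1.52.

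Among the genes that sense oxygen, 1 of 15 tested rose and none fell, with a median log2 change of −0.06. The gene that rose was EGLN1, the main HIF prolyl hydroxylase and itself a known HIF target, from 96.0, 96.2 and 94.4 CPM to 148, 162 and 157 CPM, a log2 change of 0.71 (SE 0.05, adjusted p = 3.6e-05). The groups were clearly apart in EGLN1. Another member of the family, EGLN3, had too few counts to be tested. HIF1A had 329, 357 and 366 CPM at 20% O2 and 317, 314 and 274 CPM at 3% O2, a log2 change of −0.22 (SE 0.06) that was not called (adjusted p = 0.123). It was called lower with the GC correction (adjusted p = 0.0264) and without the 2 libraries apart in GC content (adjusted p = 0.042). EPAS1, which encodes the other main alpha subunit, was low at 5.58 ± 0.439 and 6.84 ± 1.01 CPM (SD, n = 3) and not called (log2 change 0.29, 95% interval 0.04 to 0.54, adjusted p = 0.301). ARNT, VHL and HIF1AN had log2 changes of −0.07, −0.03 and 0.12 with 95% intervals of −0.18 to 0.05, −0.16 to 0.10 and −0.18 to 0.42.

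Glucose uptake and glycolysis rose along most of the pathway. Of 25 genes tested, 13 were called higher and none lower, with a median log2 change of 0.57 against −0.0045 over all tested genes, and 20 had an unadjusted p under 0.05. With the GC correction 19 were called higher and 1 lower. The glucose transporter SLC2A1 rose from 115, 98.6 and 86.6 CPM to 181, 207 and 251 CPM, a log2 change of 1.09 (SE 0.12, adjusted p = 0.000613). SLC2A3, a transporter of higher affinity, rose by 0.71 from a lower level of 7.54 ± 0.199 CPM to 12.3 ± 0.884 CPM. HK1 and HK2, the hexokinases that trap glucose in the cell, rose by 0.33 and 0.68, and the isomerases GPI and TPI1 rose by 0.66 and 0.48.

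In the lower part of the pathway, PGK1 (chrX:77910739-78129296), the first enzyme to make ATP, rose from 713, 728 and 700 CPM to 1390, 1613 and 1526 CPM, a log2 change of 1.08 (SE 0.07, adjusted p = 6.56e-06). LDHA (chr11:18394388-18408425), which turns pyruvate into lactate, rose from 1496, 1629 and 1650 CPM to 3393, 3641 and 3212 CPM, a log2 change of 1.10 (SE 0.07, adjusted p = 5.79e-06). Both about doubled, and in both the spread within each group was small beside the gap between the groups. PGAM1 rose by 0.70, from 561 ± 23.2 to 912 ± 58.8 CPM, and the lactate exporter SLC16A3 by 1.79, from 3.04 ± 0.561 to 10.5 ± 2.07 CPM.

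Several of the most abundant glycolytic transcripts did not pass the test. GAPDH had 4764, 4157 and 3928 CPM at 20% O2 and 4791, 5102 and 6362 CPM at 3% O2, a log2 change of 0.34 (SE 0.10, adjusted p = 0.125). ENO1, the common enolase, and PKM, the pyruvate kinase, had log2 changes of 0.32 (adjusted p = 0.0776) and 0.31 (adjusted p = 0.0777). PFKL, a phosphofructokinase subunit, and PFKFB3 had 0.57 (adjusted p = 0.116) and 0.34 (adjusted p = 0.138). In these genes the highest library at 20% O2 was replicate 1 and the highest at 3% O2 was replicate 3, the pair with the GC-rich profile. All of GAPDH, ENO1, PKM, PFKL and PFKFB3 were called higher with the GC correction (adjusted p between 3.15e-05 and 0.00124) and without that pair (adjusted p between 0.00508 and 0.0331). ALDOA, the main aldolase, was counted at only 8.70 ± 2.22 CPM at 20% O2 and 13.6 ± 1.43 CPM at 3% O2, and 53.5% of its exonic length is shared with other gene models on both strands, so its level here is uncertain.

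Set side by side per length of exon, the pathway kept much of its order of levels. At 20% O2 GAPDH had 1437 ± 145 CPM per kb, ENO1 666 ± 62.8, PKM 360 ± 38.3, TPI1 344 ± 27.8 and LDHA 256 ± 13.4, and at 3% O2 GAPDH had 1818 ± 279, ENO1 831 ± 95.4, LDHA 550 ± 34.7, TPI1 478 ± 41.8 and PKM 447 ± 43.1. LDHA was below PKM and TPI1 at 20% O2 and above PKM at 3% O2. LDHA and TPI1 at 3% O2, and TPI1 and PKM in both groups, lay within their spread of each other. ENO2 stayed well under ENO1, at 7.06 ± 0.426 and 21.9 ± 2.55 CPM per kb. SLC2A3 had 1.22 ± 0.0322 and 2.00 ± 0.143 CPM per kb, far under SLC2A1 at 21.2 ± 3.03 and 45.1 ± 7.54.

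**Figure D2:**
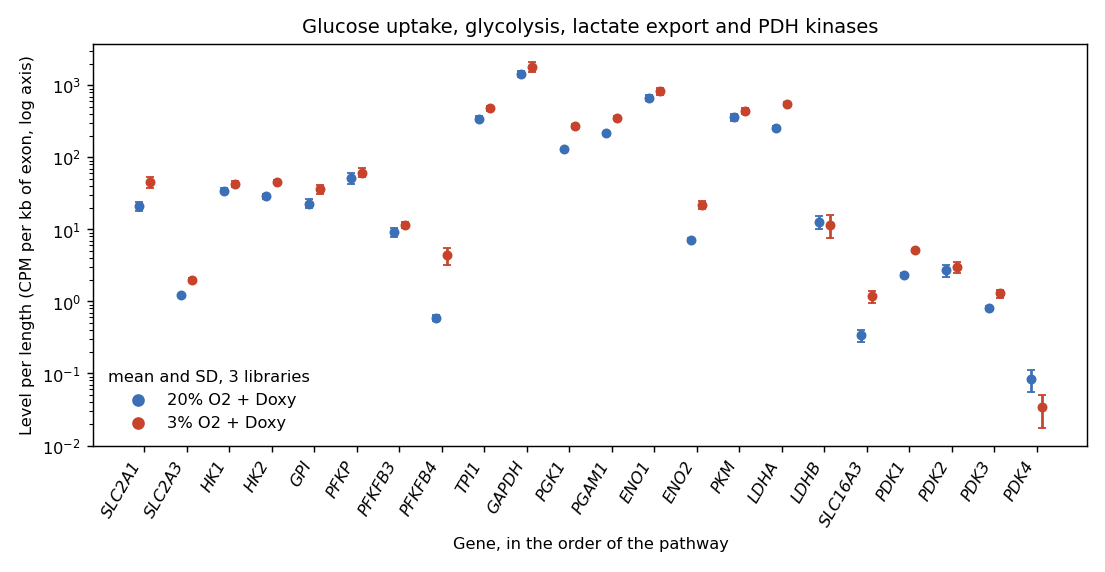
Level per length of exon (CPM per kb, log axis) of glucose transporters, glycolytic enzymes and pyruvate dehydrogenase (PDH) kinases, in the order of the pathway. Points are means and bars SD over 3 libraries, blue for 20% O2 + Doxy and red for 3% O2 + Doxy. LDHA goes from 256 to 550 CPM per kb and PFKFB4 from 0.594 to 4.35, whereas LDHB and PDK2 overlap between the groups.

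At the entry of pyruvate into mitochondria, 2 of 14 tested genes rose and none fell, with a median log2 change of −0.09. Both encode kinases that switch off pyruvate dehydrogenase. PDK1 rose from 32.7, 35.0 and 36.2 CPM to 74.2, 81.4 and 74.1 CPM, a log2 change of 1.14 (SE 0.07, adjusted p = 5.54e-06), with no overlap and little spread within the groups. PDK3 rose by 0.66, from 4.04 ± 0.276 to 6.39 ± 0.792 CPM (adjusted p = 0.0167), but was not called without the 2 libraries apart in GC content (adjusted p = 0.067). PDK2 and PDHA1, a subunit of the dehydrogenase itself, were not called, with 95% intervals of −0.17 to 0.49 and −0.22 to 0.05. PDK4 was near the limit of detection, at 0.374 ± 0.123 and 0.155 ± 0.0752 CPM.

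Glycogen genes split. Of 11 tested, 3 rose and 1 fell, with a median log2 change of 0.24. PGM1, which converts glucose phosphates on the way into and out of glycogen, rose from 60.8, 57.8 and 57.5 CPM to 109, 124 and 142 CPM, a log2 change of 1.09 (SE 0.08, adjusted p = 2.94e-05). GBE1, the branching enzyme, rose by 0.48 and PPP1R3B, which recruits a phosphatase to glycogen, by 0.62. GYG1, the protein primer of glycogen, fell from 62.8, 62.7 and 64.8 CPM to 52.3, 51.5 and 54.7 CPM, a change of −0.26 (SE 0.05, adjusted p = 0.0221). GYS1, the muscle form of glycogen synthase, was not called (log2 change 0.33, adjusted p = 0.395), but was called higher with the GC correction. In the list of pH regulators CA9 was the 1 gene called of 9 tested, and the median was −0.05.

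Of 10 mitophagy genes tested, 3 rose and none fell, with a median log2 change of 0.19. Next to BNIP3 these were its homologue BNIP3L, at 34.3, 38.4 and 36.3 CPM against 97.5, 112 and 100 CPM, a log2 change of 1.51 (SE 0.09, adjusted p = 3.52e-06), and FAM162A, a mitochondrial protein known as a HIF target, which rose by 0.66 (SE 0.09, adjusted p = 0.00178). BNIP3 and BNIP3L nearly tripled, and their groups were far apart. Of 7 genes known to switch respiration in low oxygen, MXI1, an antagonist of MYC, was the 1 called, with a rise of 0.46 from 11.1 ± 0.168 to 15.3 ± 0.401 CPM (adjusted p = 0.00278).

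Changes in transcripts of nuclear respiratory chain genes and of Fe-S proteins were small, and both medians lay under the −0.0045 of all tested genes. None of the 75 nuclear genes for respiratory chain subunits was called by edgeR, 8 had an unadjusted p under 0.05, and DESeq2 called 1, SDHB, lower. The GC correction called 1 of the 75 lower, NDUFS4. The median log2 change of these genes was −0.10, and in all 75 the 95% interval lay within a 2-fold change in either direction. COX4I1, a subunit of cytochrome oxidase with a known low-oxygen partner form, had 321, 301 and 303 CPM at 20% O2 and 288, 289 and 274 CPM at 3% O2, a log2 change of −0.12 (95% interval −0.23 to −0.01, adjusted p = 0.325). None of the 13 protein-coding genes of the mitochondrial genome was called by edgeR, 3 had an unadjusted p under 0.05, and DESeq2 called 1, MT-ND6, lower. The GC correction also called MT-ND6 lower, and the fit without the 2 libraries apart in GC content called 1 of the 13 genes lower. MT-ND6, the only one of them on its strand, had 389, 450 and 402 CPM at 20% O2 and 327, 315 and 215 CPM at 3% O2, a log2 change of −0.53 (SE 0.13, adjusted p = 0.0652).

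Of 47 genes for proteins that carry Fe-S clusters, edgeR called 1 higher and none lower, with a median log2 change of −0.10, and 47 of 47 intervals lay within 2-fold. An unadjusted p under 0.05 was found in 11 of the 47, against 2193 of all 16891 tested genes. DESeq2 called 2 higher (XDH and AOX1) and 1 lower (SDHB), the GC correction 2 higher and 3 lower (ERCC2, DPH2 and METTL17), and the fit without the 2 libraries apart in GC content 1 higher and 2 lower. XDH, xanthine dehydrogenase of purine breakdown, rose from 28.4, 27.5 and 26.2 CPM to 39.3, 42.6 and 48.0 CPM, a log2 change of 0.66 (SE 0.08, adjusted p = 0.00138). Of the 22 tested genes that assemble and deliver Fe-S clusters, none was called by edgeR, 1 had an unadjusted p under 0.05 and DESeq2 called 0. The GC correction called 1 of the 22 lower, LYRM4. The median of the list was −0.04 and all 22 intervals lay within 2-fold. ISCU, the scaffold on which the clusters are built, had a mean of 39.1 ± 1.31 CPM at 20% O2 and 37.7 ± 1.31 CPM at 3% O2 (95% interval of the log2 change −0.22 to 0.12).

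Among genes that handle iron, 1 of 17 tested rose, TFRC, the transferrin receptor through which cells take up iron. It had 432, 468 and 478 CPM at 20% O2 and 872, 883 and 809 CPM at 3% O2, a log2 change of 0.89 (SE 0.05, adjusted p = 4.37e-06). The lowest library at 3% O2 was well above the highest at 20% O2. The median of the list was 0.06.

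Of 19 genes that modify collagen, 3 rose and none fell, and 8 were called higher with the GC correction, with a median of 0.15. The catalytic subunits of the prolyl hydroxylase for collagen led them. P4HA1 rose from 55.6, 58.8 and 62.0 CPM to 138, 152 and 139 CPM, a log2 change of 1.28 (SE 0.07, adjusted p = 3.38e-06), and P4HA2 by 0.78, from 11.0 ± 1.11 to 18.9 ± 1.82 CPM. PLOD2, a lysyl hydroxylase, rose by 0.46. LOX, a collagen crosslinker long known as a hypoxia gene, was not called: its libraries had 319, 317 and 320 CPM at 20% O2 and 334, 354 and 340 CPM at 3% O2 (log2 change 0.10, 95% interval −0.02 to 0.23, adjusted p = 0.499). Of 16 collagen chain genes, COL6A3 rose by 0.60 (SE 0.10, adjusted p = 0.00852) and no other was called by edgeR. With the GC correction 5 were called higher (COL6A1, COL6A2, COL6A3, COL7A1 and COL16A1), and none was called when the 6 libraries with Doxy were fitted alone.

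Of 27 genes for histone and DNA demethylases and related oxygen-dependent enzymes, 2 rose and none fell, with a median of 0.05. The GC correction called 7 higher and 1 lower. KDM3A, which removes methyl groups from lysine 9 of histone H3, had 44.6, 50.9 and 47.8 CPM at 20% O2 and 94.9, 95.6 and 102 CPM at 3% O2, a log2 change of 1.03 (SE 0.07, adjusted p = 9.05e-06). KDM4C rose by 0.27, from 20.8 ± 0.261 to 25.1 ± 1.15 CPM (adjusted p = 0.0349), and was not called without the 2 libraries apart in GC content (adjusted p = 0.125). KDM4B, a known hypoxia gene, had a larger fitted change of 0.61 but more spread, at 39.2, 28.1 and 25.6 CPM against 39.0, 41.3 and 61.8 CPM, and was not called (adjusted p = 0.226). With the GC correction KDM4B was called higher.

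Among 19 angiogenic and other secreted factors, 5 rose and 1 fell, with a median log2 change of 0.16, and the GC correction called 8 higher and 2 lower. VEGFA (chr6:43770184-43786487), the main growth factor of blood vessels, rose from 38.1, 32.8 and 32.9 CPM to 65.6, 70.6 and 86.0 CPM, a log2 change of 1.10 (SE 0.10, adjusted p = 0.000121). STC2, the relative of STC1, rose by 0.66, from 87.0 ± 4.82 to 137 ± 8.62 CPM, and ANGPTL4, an inhibitor of lipoprotein lipase, by 1.96, from 1.12 ± 0.491 to 4.38 ± 1.83 CPM. The groups were apart in both VEGFA and STC2, and ANGPTL4 varied more from library to library. ADM, a vasodilator peptide, was called (adjusted p = 0.0466) on 6 summed counts at 20% O2 and 47 at 3% O2, a ratio of 8.27 with an exact 95% counting interval of 3.53 to 23.7. It was not called without the 2 libraries apart in GC content (adjusted p = 0.17). ANGPT1, a ligand of the TIE2 receptor, fell from 2.91, 3.55 and 3.67 CPM to 2.10, 2.29 and 1.62 CPM, a change of −0.75 (SE 0.16, adjusted p = 0.0412), and was likewise not called without that pair (adjusted p = 0.0597).

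A broader list of genes that rise in low oxygen in many cell types, which shares members with the lists above, had 46 of its 52 genes tested. Of these, 38 rose and none fell, with a median log2 change of 1.07, and 43 were called higher with the GC correction. This list was drawn from general knowledge of hypoxia, so a rise is what its name states. Members not yet named include NDRG1, a differentiation-related protein, which rose by 1.40, from 18.4 ± 1.30 to 48.4 ± 10.4 CPM. AK4, a mitochondrial adenylate kinase, rose by 1.46, and VLDLR, a lipoprotein receptor, by 1.27. The circadian repressors BHLHE40 and BHLHE41 rose by 1.32 and 0.91. ANKZF1, FUT11 and RAB20 rose by 1.10, 1.06 and 1.06, INSIG2 by 0.88, ZNF395 by 0.68, ZNF292 by 0.55 and ERO1A, an oxidase of protein folding, by 0.38, which was not called without the 2 libraries apart in GC content (adjusted p = 0.0708). PPFIA4, a scaffold protein, rose from 8, 7 and 9 counts to 186, 206 and 337 counts, or from 0.258 ± 0.00577 to 8.26 ± 2.46 CPM.

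The 8 members of this list that were tested and not called were HILPDA, PLIN2, LOX, GYS1, PFKFB3, WSB1, AKAP12 and YEATS2. HILPDA, an inhibitor of lipid breakdown that is known for its rise in hypoxia, had 12.7, 11.4 and 9.76 CPM at 20% O2 and 12.5, 13 and 13.9 CPM at 3% O2 (95% interval of the log2 change −0.04 to 0.47). PLIN2, a coat protein of lipid droplets, had 32.0 ± 0.155 and 30.2 ± 0.218 CPM (95% interval −0.19 to 0.02). WSB1, AKAP12 and YEATS2 had log2 changes of 0.28, 0.26 and 0.27 with adjusted p of 0.0586, 0.0543 and 0.0891, and were called higher with the GC correction. The other 6 of the 52, KISS1R, CXCR4, RORA, EGLN3, CA12 and PPP1R3C, had too few counts to be tested.

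In lists for other stress programmes edgeR made few calls, and other fits made more in several of them. These fits also made calls over all tested genes. DESeq2 called 412 higher and 217 lower of 16891, and the GC correction 5.18% higher and 2.31% lower of 16886. The fit without the 2 libraries apart in GC content called 247 higher and 104 lower of 17220. Of 20 targets of ATF4, the regulator of the integrated stress response, edgeR called VLDLR higher and none lower. DESeq2 called 1 higher and 1 lower (SLC7A11), the fit without the 2 libraries apart in GC content 1 higher and 1 lower, and the GC correction 2 higher and 1 lower. None of 17 genes of the unfolded protein response was called by edgeR (5 with an unadjusted p under 0.05, 2 called higher by DESeq2 and 4 with the GC correction). None of 13 genes that remove peroxide and superoxide was called (0 with an unadjusted p under 0.05, 0 by DESeq2), none of 18 interferon-induced genes (3 and 0, with 2 called higher under the GC correction), and none of 5 metallothionein-related genes (0 and 0). Of 18 NRF2 targets edgeR called 2 lower, NQO1 and TXNRD1, and the median was −0.15. DESeq2 called 6 lower (also GCLM, SLC7A11, PGD and ME1), the fit without the 2 libraries apart in GC content 6 lower, and the GC correction 7 lower and 1 higher. Of 24 genes of cholesterol synthesis and its control 1 fell, INSIG1, which holds the sterol sensor in the endoplasmic reticulum, by 0.24 on the log2 scale (SE 0.05, adjusted p = 0.0415), and it was not called without the 2 libraries apart in GC content (adjusted p = 0.0541). Of 17 genes of lipid storage and oxidation, VLDLR was the 1 called by edgeR, and both DESeq2 and the GC correction also called LPIN1 lower. Of 23 NF-kB and SASP genes, PLAU rose by 0.42, MMP3 fell by 0.40 from 75.5 ± 3.20 to 57.4 ± 2.18 CPM, and SERPINB2 fell by 0.30. DESeq2 called 3 of these 23 higher and 5 lower, and the GC correction 4 higher and 6 lower. None of the 23 was called when the 6 libraries with Doxy were fitted alone. The glucose-sensing arrestins TXNIP and ARRDC4 rose, 2 of 6 tested: TXNIP went from 66.3, 72.4 and 76.7 CPM to 123, 136 and 136 CPM, a log2 change of 0.87 (SE 0.07, adjusted p = 3.6e-05), and ARRDC4 rose by 0.58 but was not called without the 2 libraries apart in GC content (adjusted p = 0.0542).

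Changes in cell-cycle genes were small, and those of S-phase genes leaned lower. None of the 42 S-phase genes of the Seurat list was called by edgeR, 16 had an unadjusted p under 0.05, and DESeq2 called 7 lower. Over all 16891 tested genes, 2193 had such a p and DESeq2 called 217 lower. The median log2 change of the S-phase genes was −0.11, against −0.0045 over all tested genes, and their lowest was −0.30. With the GC correction 9 were called lower, against 390 (2.31%) of 16886 genes. None of the 54 G2/M genes was called by edgeR, 5 had an unadjusted p under 0.05, and DESeq2 called 0, with a median of −0.02, while 6 were called higher with the GC correction (TOP2A, TUBB4B, GTSE1, HJURP, HMMR and CBX5). PAX8, the transcription factor that marks Müllerian epithelium and much ovarian cancer, was the 1 tested gene of the ovarian carcinoma markers and rose from 9.81, 7.43 and 7.73 CPM to 12.2, 13.9 and 19.3 CPM, a log2 change of 0.86 (SE 0.16, adjusted p = 0.0194). PAX8 was not called when the 6 libraries with Doxy were fitted alone. CDH5, the endothelial cadherin, had 24.7 ± 3.27 and 32.0 ± 4.12 CPM and was not called (adjusted p = 0.176), but was called higher with the GC correction.

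Decreases were few and small. Among genes averaging at least 5 CPM the largest was in NEGR1 (chr1:71395940-72282734), a neuronal adhesion protein, which fell from 11.0, 10.1 and 11.6 CPM to 5.99, 6.34 and 4.75 CPM, a change of −0.94 (SE 0.11, adjusted p = 0.00102). PRRX1 (chr1:170662728-170739419), a homeobox factor of mesenchymal cells, fell from 31.1, 33.1 and 33.1 CPM to 22.5, 22 and 19.7 CPM, a change of −0.60 (SE 0.07, adjusted p = 0.000513). FST, the antagonist of activin, fell from 67.5, 69.7 and 72.6 CPM to 49.7, 52.0 and 50.2 CPM, a change of −0.47 (SE 0.05, adjusted p = 0.000458). Groups without overlap were a condition for choosing these genes, and the fall was to no less than about 50% of the level at 20% O2.

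2 enzymes of antioxidant defence were among the most precisely measured decreases. NQO1 (chr16:69706996-69726951), a quinone reductase, had 138, 136 and 142 CPM at 20% O2 and 101, 101 and 102 CPM at 3% O2, a change of −0.45 (SE 0.04, adjusted p = 8.83e-05). TXNRD1 (chr12:104215779-104350305), thioredoxin reductase, had 845, 907 and 905 CPM against 680, 666 and 615 CPM, a change of −0.44 (SE 0.05, adjusted p = 0.000671). The other decreases in this set of 15 were SCART1, TAF9B, DUSP16, HK2-DT, ANKRD18A, GUCY1B1, C16orf87, SUCO, POP1 and LONRF1, between −0.83 and −0.45. HK2-DT, a noncoding transcript that starts beside HK2 on the other strand, fell from 10.9 ± 0.422 to 7.54 ± 0.71 CPM, whereas HK2 rose from 175 ± 16.3 to 280 ± 15.3 CPM. All 15 decreases were called with the GC correction, and 12 without the 2 libraries apart in GC content, where ANKRD18A, C16orf87 and LONRF1 were not called (adjusted p = 0.0819, 0.15 and 0.0728).

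Cells without Doxy gave the same contrast in 6 other libraries, with none shared. There 4360 genes were called (25.8%), 2348 higher (13.9%) and 2012 lower (11.9%). Of the 276 genes that rose with Doxy, 176 (63.8%) were also called higher without Doxy and 25 were called lower. Of the 65 that fell with Doxy, 35 (53.8%) were also called lower and 4 were called higher. The 211 genes called in the same direction in both were 4.84% of the 4360 calls without Doxy. The median log2 change without Doxy was 0.44 among the genes that rose with Doxy and −0.22 among those that fell.

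**Figure D3:**
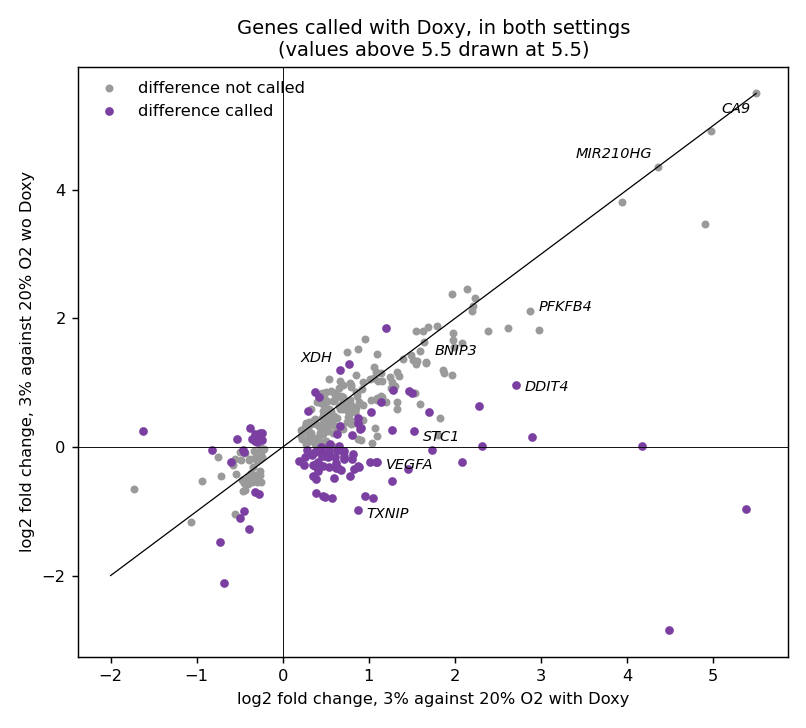
Log2 change at 3% against 20% O2 with Doxy (x axis) and wo Doxy (y axis) of the 341 genes called with Doxy. Points are genes, purple where the difference of the 2 changes was itself called, and the diagonal marks equal change. MIR210HG lies on the diagonal, with 4.36 and 4.35, whereas DDIT4, STC1, VEGFA and TXNIP lie under it.

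The difference of the 2 responses was tested as an interaction over all genes, and 1231 were called (7.29%), 689 with a larger log2 change with Doxy (4.08%) and 542 with a smaller one (3.21%). With the replicate number as a block 615 were called. Among the 276 genes that rose with Doxy, 85 were called in the difference, and of the 65 that fell, 22. These genes were chosen by their change with Doxy, which also enters the difference, so nothing is read from those counts. VEGFA rose with Doxy by 1.10, whereas its log2 change without Doxy was −0.24 (adjusted p = 0.102), and the difference was 1.33 (adjusted p = 0.000541). Its level at 20% O2 was 34.6 CPM with Doxy and 89.2 CPM without, and at 3% O2 it was 74.1 and 75.7 CPM. STC1 likewise had 38.1 CPM with Doxy and 99.2 CPM without at 20% O2, and 109 and 118 CPM at 3% O2. TXNIP went in opposite directions, with a log2 change of 0.87 with Doxy and −0.98 without. In these 3 genes the 2 conditions at 3% O2 lay closer together than those at 20% O2.

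Other increases were alike in both conditions to within their error. MIR210HG had log2 changes of 4.36 and 4.35 (difference 0.01, adjusted p = 0.998), ENO2 1.64 and 1.63, PDK1-AS1 2.20 and 2.20, EGLN1 0.71 and 0.74, and LDHA 1.10 and 1.03. These differences were not called, which does not show that the responses are equal. Over all tested genes, 13.9% were called higher and 11.9% lower without Doxy, and 7.29% were called in the difference. Of the 25 glycolytic genes, 18 rose and 1 fell without Doxy and 2 were called in the difference, both larger with Doxy. Of the 46 tested genes of the broad hypoxia list, 41 rose and 2 fell without Doxy, 12 changes were larger with Doxy and 1 smaller. Several lists that had few calls with Doxy had many without. Of the 54 G2/M genes 44 rose without Doxy and 36 were called in the difference, of 24 cholesterol genes 18 rose and 12 were called in the difference, and of 20 ATF4 targets 12 fell and 11 were called in the difference.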

How the data were processed

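The authors deposited raw gene counts, made with STAR and featureCounts by the submitters' processing notes, from poly(A) RNA primed with random hexamers and sequenced on the DNBSEQ-T7. The submitters also name DESeq2 for normalization, but the values in the table are whole numbers whose totals differ between libraries, and were used as raw counts. Gene identifiers matched GENCODE release 29 (GRCh38). Versions of STAR and featureCounts and the strand setting are not given in the sources used here. Groups came from the sample labels, with 3 libraries each. From the counts, edgeR 4.0.16 (R 4.3.3) was run with TMM scaling, filterByExpr (minimum count 10, minimum total 15), 4 condition means over all 12 libraries with 8 residual degrees of freedom, and Benjamini-Hochberg adjustment over 16891 genes. The common biological coefficient of variation was 16.3%.

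Genes were named from 27 lists written from general knowledge and 7 marker lists, plus the 15 largest called changes in each direction whose groups did not overlap and whose 6 libraries averaged 5 CPM or more. Some genes picked by these rules are not reported here. The cell-cycle lists were those of Seurat 5.3.0. Members and lists were chosen with earlier results of these data known. The HIF core was searched in 250 bases before each RefSeq start. The GC correction removed a lowess trend (span 0.3) of each library on transcript GC content. Alternatives were DESeq2 1.42.0, other filters and scaling, a replicate block and leaving out libraries. The code was tested on simulated data.

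The closest replicates, 3% O2 + Doxy 1 and 2, had a median chi-square per gene of 0.768 against 0.455 from sampling noise. The other pairs with Doxy lay further from it, between 1.61 (20% O2 + Doxy 2 and 3) and 11.5 (20% O2 + Doxy 1 and 3). All libraries were kept as separate samples. With Doxy, the deviations of libraries with the same number had correlations of −0.75, 0.44 and −0.77. The 2 libraries apart in GC content, which differ in number, had 0.82, so these values cannot show whether the numbers mark a pairing. Without Doxy, same-numbered libraries deviated together (0.36, 0.25 and 0.35), a pairing read from the data and not stated in the labels.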

Additional observations from a re-analysis of the deposited data

Results flagged for a closer look

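The oxygen response differed between cells with and without Doxy in 30 of 110 named genes tested for it, by the interaction test of edgeR across all genes (adjusted p between 3.74e-06 and 0.0425). Values are the log2 change at 3% against 20% O2 with Doxy minus that without Doxy. Over all tested genes 1231 of 16891 (7.29%) were called in the difference, and 615 with the replicate number as a block. Many of the named genes were picked for a large change with Doxy, which enters the difference, so the share among them is not set against that of all genes.

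Among regulators of nutrient and stress signalling the difference was 1.86 for TXNIP, 1.74 for DDIT4, 1.38 for ARRDC4 and 0.77 for MXI1. TXNIP and ARRDC4 were called higher with Doxy and lower without, with changes of 0.87 and −0.98, and 0.58 and −0.80. Among secreted factors and receptors it was 1.33 for VEGFA, 1.28 for STC1, 0.71 for STC2, 1.00 for VLDLR and 0.61 for TFRC. Among metabolic genes it was 0.94 for PPP1R3B, 0.85 for SLC2A3, 0.59 for AK4, 0.44 for PDK1 and 0.27 for PLIN2, which was not called with Doxy. It was 1.10 for EPAS1, whose change with Doxy was not called and whose mean level was 5.58 and 6.84 CPM with Doxy and 19.5 and 11.1 CPM without, at 20% and 3% O2. It was 0.66 for the mitophagy receptor BNIP3L, 0.61 for BHLHE41, 0.59 for PLOD2, 0.48 for KDM3A and 0.40 for P4HA1.

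MMP3 and NQO1 fell in both conditions, by less with Doxy, with differences of 0.88 and 0.54. The difference was negative in 8 genes. It was −0.36 for PRRX1, −0.38 for POP1, −0.42 for FST, −0.45 for INSIG1, −0.66 for HK2-DT and −0.77 for SCART1, all called lower with Doxy. It was −0.54 for XDH, which rose in both, and −0.39 for LOX, which was called higher only without Doxy (log2 change 0.49 against 0.10).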

How the results depend on the processing

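The number of genes called at 3% against 20% O2 with Doxy, 341, was 128 (119 higher, 9 lower) when the 6 libraries were fitted alone, 629 (412 higher, 217 lower) by DESeq2 and 1265 with the GC correction. It was 181 at an adjusted p under 0.01 and 92 with a 2-fold minimum. Leaving out 1 library gave 190 to 388, with 190 without 20% O2 + Doxy replicate 2, 212 without replicate 3 and 215 without 3% O2 + Doxy replicate 2. Without 20% O2 + Doxy replicates 1 and 2 together, which leaves 1 library assumed to vary like the other groups, 97 were called. With DESeq2 size factors, no filter, a stricter filter and without the 2 libraries apart in GC content, an alternative chosen after seeing the data, the count stayed within 1.5 times. Without Doxy, where 4360 were called, leaving out 1 library gave 2321 to 4200 (2321 to 2697 without 3% O2 wo Doxy replicate 2 or any one of the 20% O2 wo Doxy libraries), a threshold of 0.01 gave 1975 and a 2-fold minimum 451. For the difference, with 1231 calls, no filter gave 672, DESeq2 1916, leaving out 1 library 520 to 2191 (2191 without 3% O2 + Doxy replicate 3, and 520 to 810 without any one of the 20% O2 wo Doxy libraries, 20% O2 + Doxy replicate 2, 3% O2 + Doxy replicates 1 or 2, or 3% O2 wo Doxy replicates 2 or 3), leaving out 20% O2 + Doxy replicates 1 and 2 together 303, leaving out the 2 libraries apart in GC content 2497, the GC correction 3096, a threshold of 0.01 382 and a 2-fold minimum 186. The causes were not tested. With the replicate number as a block, 218 genes were called with Doxy, where a pairing by number could not be checked, 3203 without Doxy and 615 in the difference.

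Of the 30 genes with the largest changes, 15 passed a 2-fold minimum, and the 14 increases described were called under all 15 alternatives to the fit. Of the 15 decreases, 5 (NEGR1, PRRX1, FST, NQO1 and TXNRD1) were called under all 15. The count of called list members, 65, was 39 without 20% O2 + Doxy replicates 1 and 2 together and 30 with a 2-fold minimum. No named gene that was called changed direction under any alternative. ADM and FDX2, with few counts, are limited by depth.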

Other observations

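Of the 341 genes called with Doxy, 85 averaged under 5 CPM and were therefore outside the set with the largest changes, and 50 of these rose at least 2-fold. The genes below were chosen after their values were seen. SLAMF9, a receptor of the signalling lymphocyte family, had 0, 1 and 2 counts at 20% O2 and 23, 33 and 39 counts at 3% O2, a ratio of 33.4 with an exact 95% counting interval of 11.1 to 165. RAB17, a small GTPase of epithelial transport, had 3, 3 and 3 counts against 32, 46 and 58, a ratio of 16 (8.16 to 35.6). The pseudogenes AOX3P and RPLP0P2 had 0 counts in every library at 20% O2, and 3, 6 and 6 counts and 2, 1 and 5 counts at 3% O2. No fold is given for them.

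3 of 16 tested mitochondrial tRNA genes fell with Doxy, an RNA class that poly(A) selection does not aim to capture. MT-TA had 78, 62 and 86 counts at 20% O2 and 18, 26 and 24 counts at 3% O2. MT-TM had 24, 26 and 27 counts against 12, 8 and 15, and MT-TW had 14, 20 and 20 counts against 3, 8 and 4. In each the groups did not overlap. None of the 3 was called without the 2 libraries apart in GC content (edgeR adjusted p = 0.0858 for MT-TA, 0.0539 for MT-TM and 0.101 for MT-TW). None of the 13 protein-coding genes of the mitochondrial genome was called by edgeR (3 with an unadjusted p under 0.05, 1 called by DESeq2 and 1 with the GC correction).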
